A study of Mus musculus with 6 samples.

Results

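The subunits of hypoxia-inducible factor (HIF) and the oxygen-sensing hydroxylases that control it were examined in C2C12 myotubes after knockdown of DJ-1. A probe belonged to this group of genes when its TargetID, ignoring case, was HIF1A, EPAS1, ARNT, ARNT2, EGLN1, EGLN2, EGLN3, HIF1AN, VHLH or VHL. Of these 10 names, 9 were found among the 30854 TargetIDs of the array, and they held 21 of its 45281 probes. VHLH, an older name of the mouse gene VHL, had no row of its own. Of the 21 probes, 17 were also matched to a gene of the RefSeq table by gene ID or transcript, each to the gene that its TargetID names. The other 4 are named by TargetID alone, namely HIF1A ILMN_1242548, ARNT ILMN_1231986, ARNT ILMN_1235370 and EGLN3 ILMN_1231847.

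C2C12 is a mouse myoblast line whose cells fuse into multinucleated myotubes once serum is lowered. Myoblasts received 60 nM of either scramble siRNA, the control, or a DJ-1 siRNA directed against Park7, were switched to differentiation medium after 48 hours and were collected as myotubes 4 days later. Total RNA of 3 samples per group was hybridized to a single Illumina mouse BeadChip with 6 arrays. The comparison asks which transcripts differ in level when muscle cells hold less DJ-1, a protein with an antioxidant role, and it rests on a single siRNA per group and a single cell line.

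HIF is a dimer of an oxygen-labile α subunit and a stable β subunit, and it binds short elements upstream of genes for glycolysis, angiogenesis and pH control. Among the genes examined here, HIF1A and EPAS1 encode α subunits and ARNT and ARNT2 encode β subunits. When oxygen is plentiful, the prolyl hydroxylases EGLN1, EGLN2 and EGLN3 modify the α subunit so that the von Hippel-Lindau protein (VHL), the recognition subunit of a ubiquitin ligase, binds it and sends it to the proteasome, while the asparaginyl hydroxylase HIF1AN keeps coactivators away from it. The main control therefore acts on protein, which an array of transcripts does not measure, although EGLN1 and EGLN3 are themselves known as genes that hypoxia induces.

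The promoters of these genes were searched for the core of the element that HIF binds, since EGLN1 and EGLN3 are both controllers and known targets of HIF. The search covered the 250 bases before each start site in the set of RefSeq promoters used (build GRCm38.p6), which need not hold every start site of a gene. It looked for ACGTG and GCGTG on both strands, which read CACGT and CACGC on the printed strand. The palindrome CACGTG holds ACGTG on either strand and counts as 2 matches. Of the 9 genes, 8 were matched by symbol, all but Epas1, and they had 9 windows. The letters occurred in 6 of these 9 windows, from 5 of the 8 genes (62.5%), beside 12679 of 32851 windows (38.6%) and 11226 of 27025 genes (41.5%) in the whole RefSeq table. Hif1a had 3 matches, Arnt 1, Egln1 2 and Egln3 1, Egln2 had 4 at the first and 1 at the second of its start sites in the direction of transcription, and the windows of Arnt2, Hif1an and Vhl did not hold these letters. The stretch around the match nearest to the start site is shown for each gene with a match, for Egln2 from the window with 4, read 5′ to 3′ on the strand of the gene with the motif letters in capitals. The stretches lie at chr12:73907769-73907829 on the plus strand (Hif1a), chr3:95434333-95434389 on the plus strand (Arnt), chr8:124949290-124949350 on the minus strand (Egln1), chr7:27166804-27166864 on the minus strand (Egln2) and chr12:54204071-54204124 on the minus strand (Egln3).
Hif1a: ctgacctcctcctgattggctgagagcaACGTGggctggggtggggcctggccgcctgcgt
Arnt: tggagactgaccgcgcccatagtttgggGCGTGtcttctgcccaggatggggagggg
Egln1: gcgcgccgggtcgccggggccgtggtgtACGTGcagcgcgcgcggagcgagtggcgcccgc
Egln2: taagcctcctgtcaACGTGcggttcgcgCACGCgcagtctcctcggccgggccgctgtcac
Egln3: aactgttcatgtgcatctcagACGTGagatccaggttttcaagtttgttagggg
The first base of the printed match nearest to the start site lies 70 bases before it in Hif1a, 29 in Arnt, 68 in Egln1, 34 in Egln2 and 229 in Egln3. A match describes letters in a window and is neither a binding site nor a cause of any value given here.

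Each array gave a signal, in arbitrary intensity units, and a detection p-value, which falls as the probe outshines more of the negative controls, for every probe. The median over all probes was 162, 167 and 154 intensity units for scramble siRNA and 161, 167 and 152 for DJ-1 siRNA, so that the arrays of both groups were of like brightness. At a detection p-value under 0.05, the scramble arrays detected 16985, 17399 and 18179 probes and the DJ-1 siRNA arrays 18704, 18857 and 18408. The median standard error over the beads of a probe was 11.3, 8.30 and 8.66 intensity units for scramble siRNA and 7.17, 6.36 and 5.88 for DJ-1 siRNA. Each DJ-1 siRNA array therefore detected more probes with a smaller bead error than each scramble array, and the part of this in the results was not tested.

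PARK7, the gene that encodes DJ-1, checked the labels. Its normalized log2 signal was 13.60, 13.37 and 13.63 in the scramble samples and 12.48, 12.49 and 12.15 in the DJ-1 siRNA samples. All 3 knockdown samples lay below all 3 controls, and the transcript fell to 44.7% of the control level (log2 fold change −1.16, SE 0.14, adjusted p = 0.00344).

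Markers of myotubes were present, which checked the label of the cells. All 25 probes of the 17 myotube markers were detected on at least 3 arrays, as were 14 of 22 probes of dividing myoblast markers, with PAX7 and BUB1 on no array, and 0 of 13 probes of other cell types, 11 of them on no array. The summed normalized signal of the myotube markers, of which ACTA1 was the brightest, was 373800, 361700 and 360700 in the scramble samples and 288800, 305700 and 270700 in the DJ-1 siRNA samples. This sum was thus lower in every DJ-1 siRNA sample than in any scramble sample, with 15 of 25 probes lower, 0 higher and a median log2 fold change of −0.56, beside 13.6% lower and 16.5% higher of all tested probes. Without DJ-1 siRNA array 1, 8 of these probes were called. The fast myosin heavy chain MYH1 showed the largest fall of this list (−2.19 and −1.93 on its 2 probes), followed by the light chain MYL1 (−1.20), the Z-disc crosslinker ACTN2 (−1.12) and the perinatal heavy chain MYH8 (−1.11). The summed signal of the 22 probes of dividing myoblast markers, with CDC2A as the brightest, was 8057, 8725 and 7891 against 7965, 9008 and 8180, and 1 of the 14 tested probes, for the mitotic cyclin CCNB1, was called lower (−0.57) with a median of 0.18 over the list. The markers of other cell types summed to 387, 421 and 356 against 383, 364 and 380 over their 13 probes. As none of these probes met the filter, the sums describe signal near background and rank no gene. In such bulk samples, fewer myotubes and less RNA per myotube cannot be told apart, and the part of the lower myotube markers in the values of the HIF genes was not tested.

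Few transcripts of the HIF system passed the test for a difference between knockdown and control myotubes. Of the 21 probes, 15 from 7 genes were detected on at least 3 of the 6 arrays and were tested. A single probe of the 15, for the β subunit ARNT, was called at an adjusted p under 0.05, and it was higher after DJ-1 knockdown. This is 6.67% of the tested probes of these genes, beside 5387 of all 17890 tested probes (30.1%), of which 2957 (16.5%) were higher and 2430 (13.6%) lower. The count of called HIF probes was also 1 in 9 of 16 alternative settings. It was 4 of 15 without scramble array 3, where 22.2% of all tested probes were called. Without background correction it was 3 of 15 under either scaling, where 35.2% of all tested probes were called. For 5 of the 15 probes (33.3%), 4 higher and 1 lower, no sample of 1 group lay within the range of the other, beside 48.5% of all tested probes. The fold changes of the 15 probes ranged from −0.56 for EGLN2 to 0.96 for ARNT on the log2 scale, 10 above and 5 below 0, with a median of 0.06 beside 0.05 for all tested probes. At an unadjusted p under 0.05, 4 of the 15 passed. The 95% confidence interval lay within 1 log2 unit of 0 in both directions for 14 of the 15 probes and within 0.5 for 4, so that smaller changes were not resolved for most of them. The median standard error of a log2 fold change was 0.17 for these probes and 0.14 for all tested probes. All p-values measure only the spread between these samples.

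**Figure D1:**
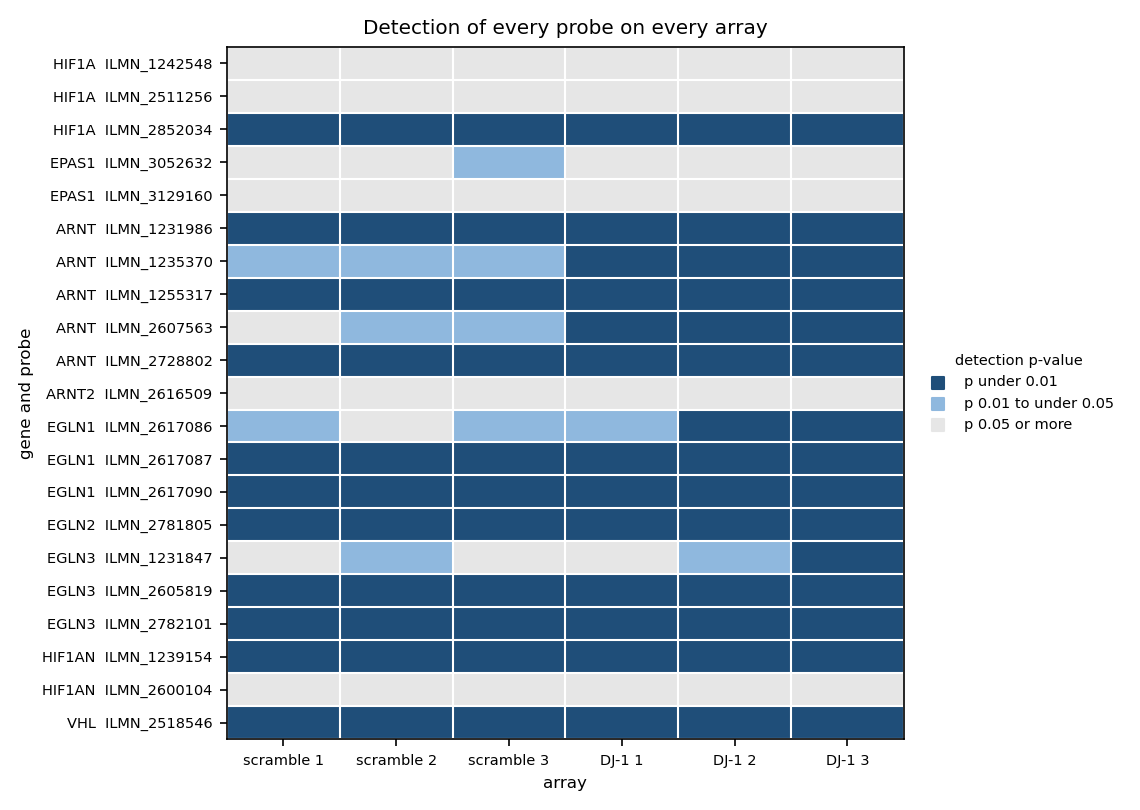
Detection p-value of each of the 21 probes (rows, gene and probe) on each of the 6 arrays (columns), as dark blue (under 0.01), light blue (0.01 to under 0.05) or grey (0.05 or more). Of the 21 probes, 12 were detected on every array and 5 on none, and both EPAS1 probes and the ARNT2 probe are grey but for EPAS1 on scramble array 3.

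The α subunits were read by HIF1A and EPAS1. HIF1A, which encodes HIF-1α, had 3 probes, of which ILMN_2852034 was detected on every array. Its log2 signal was 7.85, 7.66 and 8.52 in the scramble samples and 8.34, 8.37 and 8.62 in the DJ-1 siRNA samples. The groups overlapped, since scramble sample 3 lay above 2 of the 3 knockdown samples, whereas the other 2 controls lay below all of them. The log2 fold change was 0.44 (95% CI −0.11 to 0.98, adjusted p = 0.191; exact two-sided permutation p = 0.3), so that a 1.98-fold rise and a small fall both lie within its interval. This value varied with the controls included, as it was 0.69 and called without scramble sample 3 (adjusted p = 0.0246) and 0.26 without scramble sample 2 (adjusted p = 0.428). Without background correction it was 0.29 under quantile and 0.27 under 75th percentile scaling. The other HIF1A probes, ILMN_1242548 and ILMN_2511256, were detected on no array, with detection p-values from 0.212 to 0.983, and were not tested.

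EPAS1, which encodes HIF-2α, the α subunit known best from endothelium and from the control of erythropoietin, was near background. Probe ILMN_3052632 gave 160, 155 and 170 intensity units in the scramble samples and 149, 152 and 142 in the DJ-1 siRNA samples, and was detected on scramble array 3 alone. Probe ILMN_3129160 gave 139, 126 and 121 against 165, 143 and 132 intensity units and was detected on no array. The groups separated on the first probe and overlapped on the second, with means that differed in opposite directions, and with all but 1 of the 12 readings at background neither was tested.

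The β subunits were read by ARNT and ARNT2. ARNT, the shared partner of HIF α subunits and of the dioxin receptor, had 5 probes, and all 5 were tested. Probe ILMN_2607563, the called one, gave log2 signals of 5.31, 5.86 and 5.58 in the scramble samples and 6.33, 6.51 and 6.80 in the DJ-1 siRNA samples. All 3 knockdown samples lay above all 3 controls, also in deposited signal (175, 201 and 173 against 213, 236 and 221 intensity units). The level was 1.95-fold higher (log2 fold change 0.96, SE 0.18, 95% CI 0.53 to 1.39, adjusted p = 0.0113; exact two-sided permutation p = 0.1, the smallest that 3 against 3 samples allow). The size depended on the background correction, without which the log2 fold change was 0.33 under quantile and 0.34 under 75th percentile scaling, called in both. The probe was dim, with detection p-values of 0.0972, 0.0203 and 0.0342 on the scramble arrays and 0.00107 on each DJ-1 siRNA array, so that scramble sample 1 was not detected.

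The other 4 ARNT probes were detected on every array and none was called. Probe ILMN_1255317 gave 9.64, 9.40 and 9.53 in the scramble samples and 9.75, 9.78 and 10.04 in the DJ-1 siRNA samples. Its groups did not overlap, in normalized or deposited signal, and the difference was smaller than on the called probe (log2 fold change 0.33, 95% CI 0.04 to 0.63, adjusted p = 0.0819). Probe ILMN_2728802 gave 6.62, 6.16 and 6.62 against 6.68, 6.84 and 7.28. Its knockdown samples also lay above the controls after normalization, but overlapped them in deposited signal (log2 fold change 0.46, 95% CI −0.01 to 0.94, adjusted p = 0.124). Probe ILMN_1235370 gave 6.34, 5.80 and 5.71 against 5.98, 6.21 and 6.55, and probe ILMN_1231986 gave 9.55, 9.01 and 9.08 against 9.38, 9.13 and 9.31. On both, scramble sample 1 was the highest control and lay among or above the knockdown samples, and the log2 fold changes were 0.30 (95% CI −0.22 to 0.81) and 0.06 (95% CI −0.34 to 0.46). When single arrays were left out, the value of ILMN_1235370 ranged from 0.14 to 0.49 and that of ILMN_2728802 from 0.29 to 0.59.

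The 5 ARNT probes thus had a positive mean difference each, from 0.06 to 0.96. The sign was the same under every scaling tried, but without background correction the range was 0.05 to 0.33 under quantile and 0.04 to 0.34 under 75th percentile scaling. Without scramble sample 2 or 3 the value of ILMN_1231986 turned negative (−0.044 and −0.006). This probe and ILMN_1235370, which had the smallest differences of the 5, are named by TargetID alone. Probe sequences were not at hand, so that the transcripts matched by each probe are not known. The mean of the 5 per sample gave a log2 fold change of 0.42 (SE 0.13, 95% CI 0.11 to 0.74, adjusted p = 0.0484 over all genes). The spread between the probes was compared pair by pair within each sample, over the 16 pairs of tested probes that share a gene. Against the log2 fold change of the called probe, that of ILMN_1231986 was lower by a difference of −0.90, that of ILMN_1235370 by −0.66 and that of ILMN_1255317 by −0.63, without overlap of the groups, each at an exact two-sided permutation p of 0.1 and an adjusted p of 0.4 over the 16 pairs. From ILMN_2728802 the called probe differed by 0.50 with overlapping groups (exact two-sided permutation p = 0.4, adjusted p = 0.582). The test cannot go below 0.1 with 3 samples per group. No difference between probes could therefore pass it, and it does not show that the probes agree.

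ARNT2, the β subunit known from neurons and kidney, was read by the probe ILMN_2616509, which was detected on no array. It gave 186, 152 and 134 intensity units in the scramble samples and 168, 173 and 152 in the DJ-1 siRNA samples, with detection p-values from 0.0534 to 0.644. The groups overlapped and no change was tested.

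**Figure D2:**
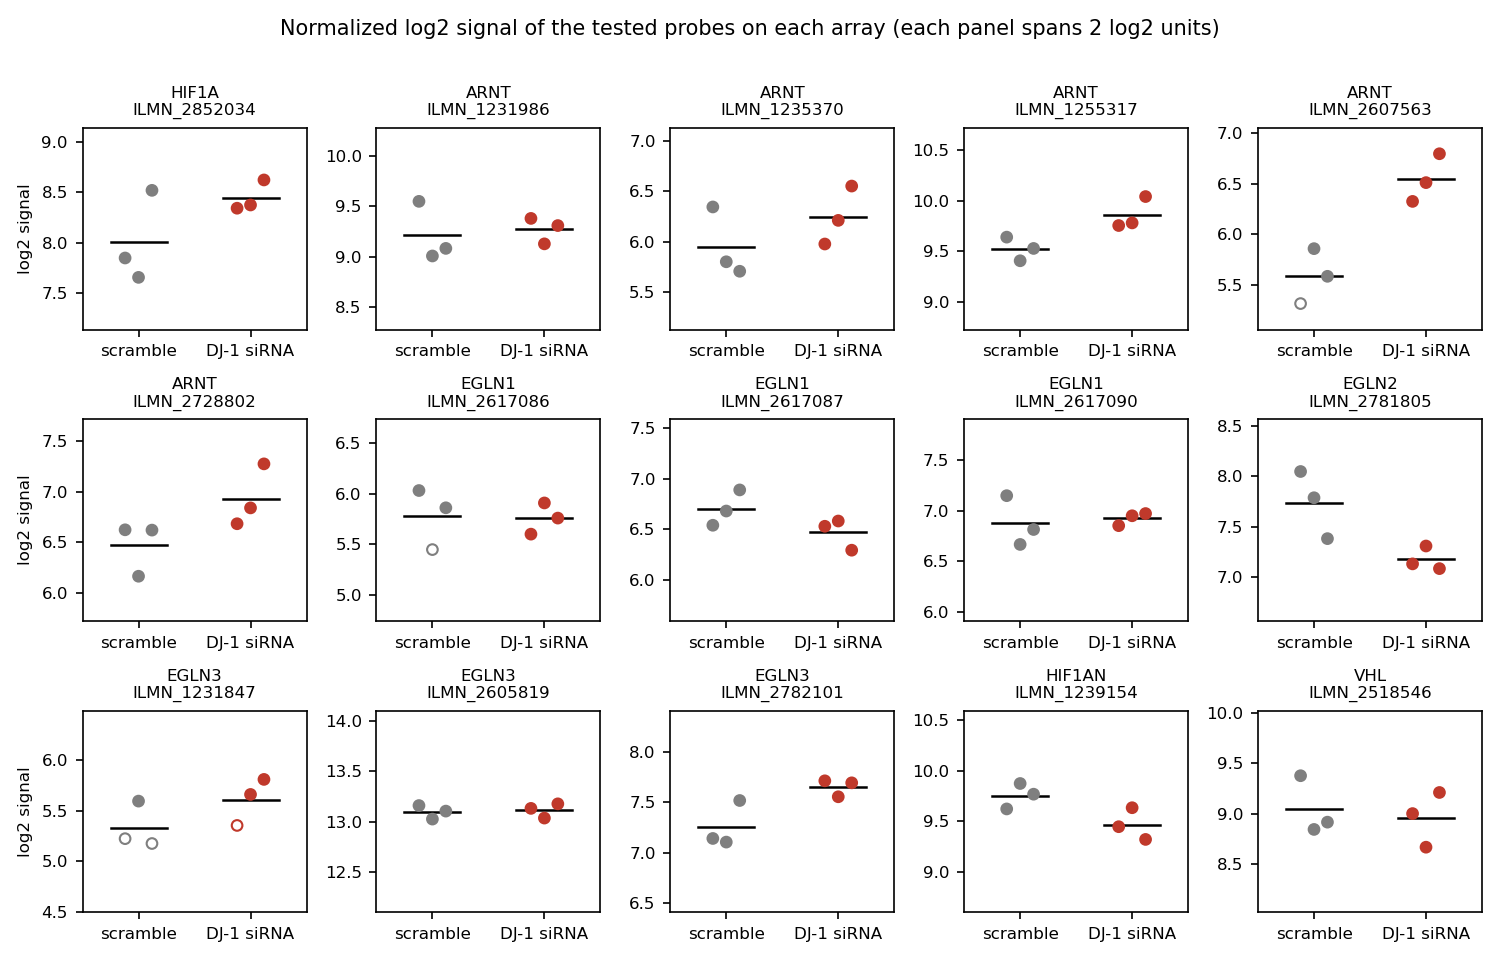
Normalized log2 signal (vertical axis, 2 log2 units in each panel) of the 15 tested probes in the 3 scramble (grey) and 3 DJ-1 siRNA (red) samples, with the group means as lines and open circles where the detection p-value was 0.05 or more. The groups are apart on ARNT ILMN_2607563, ILMN_1255317 and ILMN_2728802, EGLN3 ILMN_2782101 and EGLN2, and overlap on the other 10 probes.

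Of the prolyl hydroxylases, EGLN1 (PHD2), held to be the main oxygen sensor that sets HIF-1α levels, had 3 tested probes. Probe ILMN_2617087 gave 6.54, 6.68 and 6.89 in the scramble samples and 6.53, 6.58 and 6.29 in the DJ-1 siRNA samples. Probe ILMN_2617090 gave 7.15, 6.66 and 6.81 against 6.85, 6.95 and 6.97. Probe ILMN_2617086 gave 6.03, 5.45 and 5.86 against 5.60, 5.91 and 5.76, and was detected on all arrays but scramble 2. The groups overlapped on all 3 probes, and on the last 2 the highest and the lowest of all samples, scramble 1 and scramble 2, were both controls. The log2 fold changes were −0.24 (95% CI −0.56 to 0.09, adjusted p = 0.228), 0.05 (95% CI −0.29 to 0.39, adjusted p = 0.825) and −0.02 (95% CI −0.44 to 0.39, adjusted p = 0.928) in that order, and the sign of the last 2 turned when single samples were left out. When single arrays were left out, the first ranged from −0.32 to −0.14. Without background correction the first was −0.10 under quantile scaling.

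EGLN2 (PHD1), the prolyl hydroxylase known for its part in the oxygen use of muscle, had the lowest fold change of the tested members. Its probe, ILMN_2781805, gave 8.05, 7.79 and 7.38 in the scramble samples and 7.13, 7.31 and 7.09 in the DJ-1 siRNA samples. All 3 knockdown samples lay below all 3 controls after normalization, with scramble sample 3 close to them. In deposited signal the groups overlapped (417, 373 and 290 against 273, 309 and 243 intensity units), since knockdown sample 2 exceeded scramble sample 3. The level was 67.7% of that in controls (log2 fold change −0.56, SE 0.18, 95% CI −0.99 to −0.14), with an adjusted p of 0.0549 that narrowly missed the threshold and an exact two-sided permutation p of 0.1. Of 16 alternative settings, 7 brought the probe below the threshold (adjusted p from 0.0208 to 0.155 over the 16), and without scramble sample 3 it was called at −0.74. Without background correction the fall was smaller, at −0.33 under both scalings, and called.

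EGLN3 (PHD3), a hydroxylase that hypoxia induces and that muscle cells make as they differentiate, had 3 tested probes that differed in their values. Probe ILMN_2605819 gave 13.16, 13.02 and 13.10 in the scramble samples and 13.13, 13.03 and 13.18 in the DJ-1 siRNA samples. The samples of both groups were interleaved within a narrow range, and the log2 fold change of 0.02 had the tightest interval among the members (95% CI −0.21 to 0.25, adjusted p = 0.904), that is from 0.864-fold to 1.19-fold. The value depended on the scaling, with 0.14 under 75th percentile scaling and 0.09 under the same without background correction, and it turned negative without scramble sample 2 or DJ-1 siRNA sample 3. Probe ILMN_2782101 gave 7.14, 7.10 and 7.52 against 7.71, 7.55 and 7.69. Here all knockdown samples lay above the controls after normalization, scramble sample 3 only just, but not in deposited signal, and the log2 fold change of 0.40 (95% CI 0.07 to 0.73) was not called (adjusted p = 0.0696). It was called at 0.53 without scramble sample 3 (adjusted p = 0.0278) and was 0.22 without background correction. Probe ILMN_1231847, detected on 1 scramble and 2 DJ-1 siRNA arrays, gave 5.22, 5.60 and 5.18 against 5.36, 5.66 and 5.81, with overlapping groups and a log2 fold change of 0.28 (95% CI −0.12 to 0.68, adjusted p = 0.254). This value was 0.14 under 75th percentile scaling. Without background correction it was 0.09 under quantile and 0.10 under 75th percentile scaling. It ranged from 0.18 to 0.41 when single arrays were left out. The difference in fold change between the first 2 of these probes was −0.38, without overlap of the groups (exact two-sided permutation p = 0.1, adjusted p = 0.4 over the 16 pairs). This test cannot go below 0.1 with 3 samples per group. No difference could therefore pass it, and it does not show that the probes agree.

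HIF1AN, the asparaginyl hydroxylase also called factor inhibiting HIF, had 1 tested probe. ILMN_1239154 gave 9.62, 9.87 and 9.77 in the scramble samples and 9.45, 9.63 and 9.32 in the DJ-1 siRNA samples. Knockdown samples 1 and 3 lay below all controls and knockdown sample 2 just above the lowest control, so that the groups overlapped (log2 fold change −0.29, 95% CI −0.58 to 0.01, adjusted p = 0.125). The other probe, ILMN_2600104, was detected on no array, with signals of 129, 130 and 147 against 150, 157 and 146 intensity units.

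VHL, which recognises hydroxylated α subunits for degradation, was read by ILMN_2518546. Its log2 signal was 9.38, 8.85 and 8.92 in the scramble samples and 9.0, 8.67 and 9.21 in the DJ-1 siRNA samples. Scramble sample 1 was the highest and knockdown sample 2 the lowest of all 6, the groups overlapped, and the log2 fold change was −0.09 (95% CI −0.55 to 0.38, adjusted p = 0.772). It turned positive without scramble sample 1 or knockdown sample 2.

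**Figure D3:**
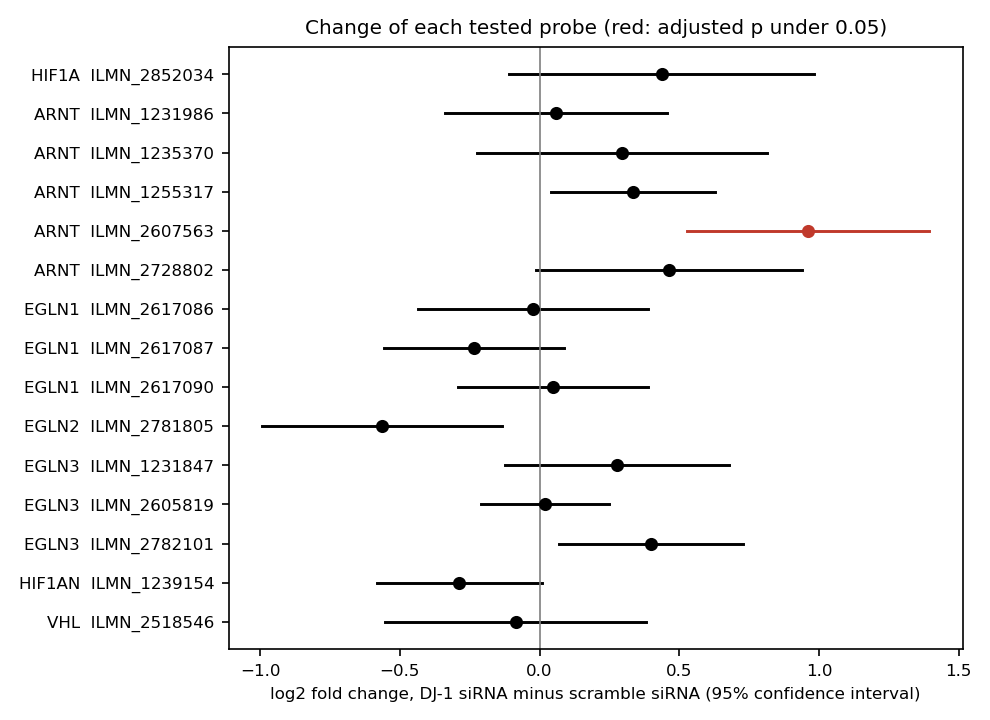
Log2 fold change of each tested probe, DJ-1 siRNA minus scramble siRNA (points), with its 95% confidence interval (bars), in red where the adjusted p was under 0.05. The interval of ARNT ILMN_2607563 runs from 0.53 to 1.39, those of ARNT ILMN_1255317, EGLN2 and EGLN3 ILMN_2782101 lie on 1 side of 0 without a call, and the other 11 include 0.

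By the likeness of its values over the 6 arrays, the HIF1A probe ILMN_2852034 was nearest to 0610010K14RIK (Pearson r = 0.994), ANXA11 (0.986), an annexin that binds membranes in a calcium-dependent manner, and GM1587 (0.983), among 17889 other tested probes. In all, 236 probes had an r above 0.9, and the values are given as a description of arrays that share 1 BeadChip.

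The members were set beside other genes of the same pathway. Of 87 probes for 37 partners and regulators of HIF, 57 were tested, and 7 of these were higher and 8 lower after DJ-1 knockdown, with a median log2 fold change of 0.03. Those with the largest rises were RAD23B (0.68), a proteasome shuttle factor, GNB2L1 (0.66), the scaffold RACK1 that promotes oxygen-independent loss of HIF-1α, USP33 (0.51 and 0.49), a deubiquitinase that VHL binds, and PKM2 (0.45), a pyruvate kinase. Those with the largest falls were SIAH1B (−0.95), a ligase that targets prolyl hydroxylases, SENP1 (−0.65, with overlap in deposited signal), which removes SUMO from HIF-1α, TCEB1 (−0.53), the elongin that joins VHL to its ligase complex, 1500041N16RIK (−0.48), which RefSeq names Wdr83, a scaffold that binds EGLN3, and HSP90AA1 (−0.44), a chaperone of HIF-1α. The probes of RAD23B, PKM2, SIAH1B and HSP90AA1 did not all pass the test, with the other probe of HSP90AA1 that was tested at −0.14, that of SIAH1B at −0.34 and that of PKM2, the brightest probe of the list, at 0.05. The other RAD23B probes were at 0.33, which was called, 0.18 and 0.10. The RAD23B probe at 0.68 and the PKM2 probe at 0.45 had no match in the RefSeq table. The 15 called of 57 are 26.3%, beside 30.1% of all tested probes. This count fell to 2 without DJ-1 siRNA array 1 and without array 3, where 14.3% and 15.2% of all tested probes were called.

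HIF1A, EPAS1, ARNT and ARNT2 belong to the bHLH-PAS family. The list set beside them held 18 genes with 34 probes, among them 3 coactivators and the 3 PER genes, whose proteins have PAS domains but are not DNA-binding factors. Of these probes, 10 were tested, with 4 higher, 2 lower and a median of 0.29, beside 16.5% higher and 13.6% lower of all tested probes. The 6 calls, of which 3 were PER probes, were 3 without any 1 of the DJ-1 siRNA arrays, with no filter and without moderation. The higher ones were the circadian repressors PER1 and PER3 and the developmental factor SIM2, an ARNT partner. PER1 gave 8.14, 8.38 and 8.32 in the scramble samples and 9.80, 9.55 and 10.32 in the DJ-1 siRNA samples on probe ILMN_2813484 (log2 fold change 1.61, SE 0.20, adjusted p = 0.00381) and rose by 1.91 on its other probe. The knockdown samples of PER1 lay above the controls by more than the spread of either group. SIM2 rose by 0.58. PER3 was called at 1.07, but it was not detected on scramble array 3 and its groups overlapped in deposited signal, so that the size of its change is uncertain. The circadian activators CLOCK and ARNTL were lower (−0.43 and −0.38). No probe of PER2 was called, and ARNTL2 and NPAS2 were detected on no array.

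EGLN1, EGLN2, EGLN3 and HIF1AN are iron and 2-oxoglutarate dependent dioxygenases. The other enzymes of this class had 116 probes from 51 genes, and of the 70 tested, 13 were higher and 4 lower, with a median of 0.20. The called ones were 24.3% of those tested, beside 30.1% of all tested probes (16.5% higher, 13.6% lower). Their count of 17 was 5 without DJ-1 siRNA array 1, 8 without array 3, 8 without moderation and 9 with no filter. The largest rises were those of the collagen prolyl hydroxylases P4HA1 (0.97 on a probe without a match in the RefSeq table and 0.58 on a matched one, both called) and LEPREL1 (0.85, detected on 1 of 3 scramble arrays, so that its size and rank are uncertain), the aspartyl hydroxylase ASPH (0.78), the histone demethylase JMJD2B (0.76) and the collagen lysyl hydroxylase PLOD2 (0.73). The probes of ASPH differed in direction, since another of its probes fell by 1.63. OGFOD2 (−1.24) and JMJD5 (−0.43) were also lower, the former on 1 of its 2 tested probes, which was detected on 2 of 3 DJ-1 siRNA arrays. JARID1C, a histone demethylase, was called lower on a probe that was detected on all scramble arrays but on no DJ-1 siRNA array, where its level is a bound, and it was at least 1.16-fold higher in the scramble samples against the lowest detected signal of each array. This call, and 1 of the 13 higher ones, came from a probe that met the filter through 1 group alone. Under the stricter filter, which leaves both probes out, 18 dioxygenase probes were called.

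The list of genes known to be induced in hypoxia left out the members and was meant to leave out glycolysis, but holds ALDOC. It had 79 probes from 44 genes. Of the 56 tested, 25 were higher (44.6%) and 2 lower (3.57%) with a median of 0.35, beside 16.5% and 13.6% of all tested probes. This list, like the others, was chosen with earlier results of these data known, so that these shares are not independent of them. The 25 higher were 15 without DJ-1 siRNA array 1 and 15 without array 3. In these settings 1392 and 1456 of all 17890 tested probes were called higher, beside 2957 with every array. The largest rises were NDRG1, a gene of differentiation and stress responses (1.46 on its probe and 1.64 on a probe named NDRL that RefSeq assigns to Ndrg1), the carbonic anhydrases CAR9 (1.33) and CAR12 (1.26), and ALDOC (1.31), an aldolase of glycolysis. CAR9 gave 11.19, 10.97 and 11.25 in the scramble samples and 12.46, 12.37 and 12.56 in the DJ-1 siRNA samples on probe ILMN_1244145 (SE 0.12, adjusted p = 0.00274). Every knockdown sample of CAR9 lay above every control with a gap wider than the range of either group. The transferrin receptor TFRC was the exception in the other direction, with falls of −0.71 and −0.66 on its 2 tested probes, and the angiogenic factor VEGFA had values of 0.02 and 0.09 that were not called. The lists share genes, as P4HA1, P4HA2, JMJD1A and JMJD2B count among both dioxygenases and hypoxia-induced genes. ARNTL, HIF3A, NCOA1 and NCOA2 are in both the list of HIF partners and regulators and that of the bHLH-PAS family. The list of HIF partners and regulators also shares P4HTM with the dioxygenases and CITED2 with the hypoxia-induced genes. Whether the HIF proteins bear on these values was not tested.

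**Figure D4:**
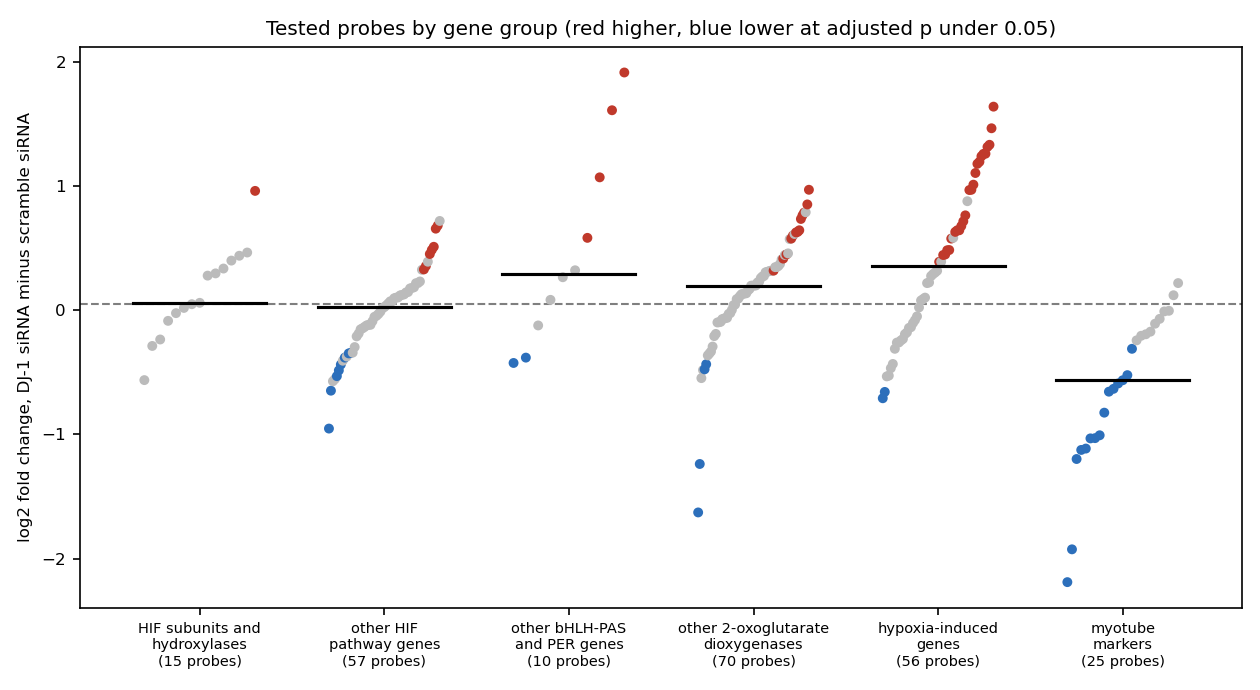
Log2 fold change (vertical axis, DJ-1 siRNA minus scramble siRNA) of every tested probe of 6 gene groups, each sorted from low to high, with red for calls higher, blue for calls lower, grey for no call, black lines at the median of each group and a dashed line at the median of all tested probes (0.05). The 15 probes of the HIF subunits and hydroxylases lie between −0.56 and 0.96 around a median of 0.06, while the hypoxia-induced genes have a median of 0.35 and the myotube markers one of −0.56.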

How the data were processed

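Total RNA of C2C12 myotubes was measured in 3 scramble siRNA and 3 DJ-1 siRNA samples, grouped by their titles. The authors labelled about 200 ng per sample and quantified the arrays in GenomeStudio. For each of 45281 probes and each array they deposited a mean signal intensity, neither normalized nor background-corrected, its standard error over beads, a bead count and a detection p-value. All arrays lay on 1 BeadChip, so that chip and group are not confounded.

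In R 4.3.3 with limma 3.58.1, background correction (normexp, offset 16, negative controls estimated through the detection p-values), quantile scaling and the log2 transform were done with neqc. The offset compresses changes of dim probes. Probes detected at 0.05 on 3 or more of the 6 arrays, 17890 in all, entered lmFit and eBayes, the Benjamini-Hochberg adjustment ran over this whole table, and an adjusted p under 0.05 was a call. Fold changes are DJ-1 siRNA minus scramble siRNA. The 95% confidence intervals come from the same fit, and their precision is limited by 3 arrays per group. Single values were also put to an exact two-sided permutation test over the samples. The code was also run on simulated data with the same log2 spread for every probe, which bears on the code and not on the calls given here.

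Every probe of the members is given, and from each gene list up to 5 called probes with the largest rise and up to 5 with the largest fall, besides the 3 probes most like HIF1A. VEGFA, and the further probes of RAD23B, PKM2, SIAH1B, HSP90AA1, P4HA1 and OGFOD2, were added after their values were seen. The members and lists were chosen with earlier results of these data known. Other background corrections, scalings, filters, prior variances, weights, a test per probe without moderation, means per gene, a replicate block and the omission of single arrays were tried as alternatives.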

Additional observations from a re-analysis of the deposited data

How the results depend on the processing

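PARK7 stayed called in all 16 alternatives (−1.24 to −1.003). The called ARNT probe ILMN_2607563 was called in all 14 alternatives that tested the probe itself (0.33 to 1.10, with 0.33 and 0.34 where no background was corrected, adjusted p from 0.00732 to 0.0493), but a stricter filter (detection p under 0.01 on every array) dropped it. The count of called probes of the HIF genes, 1 of 15, was 3 without background correction under quantile and under 75th percentile scaling (ARNT ILMN_1255317 and EGLN2 besides), 3 with a trend in the prior variance (the same additions), 3 under the stricter filter (ARNT ILMN_1255317, EGLN2 and EGLN3 ILMN_2782101, of 11 tested), 2 with array weights (EGLN2 besides), 2 with means per gene (ARNT and EGLN2) and 1 to 4 when single arrays were left out, with 4 only without scramble array 3 (EGLN2, EGLN3 ILMN_2782101 and HIF1A besides). Signs turned for uncalled probes only. The range when single arrays were left out was −0.044 to 0.23 for ARNT ILMN_1231986 (negative without scramble 2 or 3), −0.057 to 0.19 for EGLN1 ILMN_2617090 (negative without scramble 2), −0.19 to 0.10 for EGLN1 ILMN_2617086 (positive without scramble 1, scramble 3 or DJ-1 siRNA 1), −0.018 to 0.058 for EGLN3 ILMN_2605819 (negative without scramble 2 or DJ-1 siRNA 3) and −0.21 to 0.079 for VHL (positive without scramble 1 or DJ-1 siRNA 2), and the mean per gene was −0.071 for EGLN1. Over all probes the count of 5387 was 3519 with no filter and 2564 to 5290 when single arrays were left out (2564 without DJ-1 siRNA array 1, 2718 without array 3). Counts of calls in the lists also moved. With no filter they were 7 for HIF partners and regulators, 3 for bHLH-PAS and PER genes and 9 for dioxygenases, and under the test without moderation 3 for bHLH-PAS and PER genes, 8 for dioxygenases and 2 for dividing myoblast markers. The myoblast markers gave 2 with array weights and with means per gene, 3 under 75th percentile scaling, with or without background correction, and with the trend, 4 without background correction under quantile scaling and 5 under the stricter filter. When single arrays were left out, the counts ran from 2 to 10 for HIF partners and regulators, 3 to 4 for bHLH-PAS and PER genes, 5 to 14 for dioxygenases, 17 to 29 for hypoxia-induced genes, 8 to 14 for myotube markers and 0 to 1 for myoblast markers, each lowest without DJ-1 siRNA array 1, a value that array 3 shares for HIF regulators, bHLH-PAS and PER genes and myoblast markers and array 2 for bHLH-PAS and PER genes. Some of these settings hold fewer samples or another number of tested probes, and the cause of the moves was not tested. Samples of the 2 groups share replicate numbers in their titles, but the deviations of samples with the same number correlated by 0.05, 0.05 and 0.02, below 0.1, so that the numbers were not taken as pairs, although each array correlated best with its own number. With the number as a replicate block, 4350 probes were called, with 1 among the HIF genes and 9 for HIF partners and regulators.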
